A study of Mus musculus with 17 samples.

Results

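The cytosolic ribosomal proteins are the structural proteins of the ribosomes that translate nuclear-encoded mRNAs. Their genes were taken from the count table by symbol: Rpl or Rps followed by digits and at most one trailing a, l or x, together with Rpsa, Rplp0, Rplp1 and Rplp2. Names of pseudogenes were dropped, and a mean raw count of at least 10 over the 17 libraries was required. Of 80 matching rows, 79 met the minimum, among 21982 genes in the table; Rpl10l was left out, with a mean count of 0. The 79 genes divide into 31 of the small subunit and 48 of the large subunit, and all of them passed the low-count filter of the test. Their mean counts ran from 16.5 for Rpl39l to 4074 for Rpl4, with a median of 834, and 77 of the 79 had a mean of at least 100.

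Messenger RNA of brown adipose tissue, the fat that produces heat, was sequenced in 17 libraries from mice of strain background C57BL/6. Mice lacking Nocturnin, a circadian protein (labelled Noc-/-, gene symbol Noct), and their littermates labelled Noc+/+ were each caged alone with food removed for 4 h, either in the cold at 6 °C or at 22 °C. The labels give 4 groups, called knockouts and wild types from here on. The Noc-/- mice at 6 °C numbered 4 (1 female, 3 male, labelled age 11.14 to 17.00), and the Noc-/- mice at 22 °C numbered 4 (1 female, 3 male, 11.14 to 23.57). The Noc+/+ mice at 6 °C numbered 5 (4 female, 1 male, 11.14 to 23.00), and the Noc+/+ mice at 22 °C numbered 4 (3 female, 1 male, 11.14 to 23.57). Ages are labelled with no unit, and the design text speaks of animals 10 to 20 weeks old. The labels do not say how the allele was made, in which cells it acts, or at what time of day tissue was taken. Most knockouts were male and most wild types female, so each genotype comparison rests on a fitted sex term. Each library is taken as 1 mouse, as the design text counts mice per condition.

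Ribosomal proteins assemble with ribosomal RNA in the nucleolus, and one copy of nearly every protein goes into each ribosome. In mammals most of their mRNAs begin with a run of pyrimidines, the terminal oligopyrimidine (TOP) tract, through which the TOR kinase pathway and the binding protein Larp1 adjust their translation and stability. The nucleolar factors that make and assemble the ribosome, the biogenesis genes, are a separate set controlled largely at transcription. Brown adipocytes exposed to cold change their transcription and protein synthesis within hours.

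The start regions of a few genes show what a TOP tract looks like in these genes and how the start of a biogenesis gene reads. Each window holds 30 bases, 15 before and 15 after a start annotated by RefSeq on GRCm38.p6, written on the strand of the gene from its 5′ to its 3′ end, and capitals mark runs of at least 6 pyrimidines. Rps6 and Rpl9 are shown because they were the called ribosomal protein genes, Rps27 and Rps27l because they are a paralog pair, Rplp2 because it varied most within groups after 2 sparse paralogs, and Nop58 and Gnl3 as biogenesis genes that rose in the cold. The windows lie at chr4:86857353-86857382 (minus strand) for Rps6, chr5:65391417-65391446 (minus) for Rpl9, chr3:90213634-90213663 (minus) for Rps27, chr9:66946071-66946100 (plus) for the first listed start of Rps27l, chr7:141447636-141447665 (plus) for Rplp2, chr1:59684991-59685020 (plus) for Nop58 and chr14:31019117-31019146 (minus) for Gnl3.
Rps6: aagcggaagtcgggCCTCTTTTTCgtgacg
Rpl9: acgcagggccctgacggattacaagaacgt
Rps27: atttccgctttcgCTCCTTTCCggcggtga
Rps27l: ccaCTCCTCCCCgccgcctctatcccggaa
Rplp2: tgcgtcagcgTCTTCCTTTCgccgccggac
Nop58: tatttgctgctccacgaggagaggtgtgga
Gnl3: cgtaaatccaacctgtggccgccaggcgag
The run was 10 bases long at Rps6 and Rplp2 and 9 bases long at Rps27, and it spanned the annotated start in all 3; at Rps27l it was 9 bases long and ended before the start. The windows of Rpl9, Nop58 and Gnl3 held no such run; an annotated start need not be the one used in this tissue.

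RefSeq held a promoter window (250 bases before to 50 after a start) for 59 of the 79 ribosomal protein genes, and a gene was counted if any of its windows held the motif. The letters CTTTC, on the gene strand within 25 bases of the start, were found for 32.2% of the 59 genes, against 10.4% of 48 biogenesis genes and 6.9% of 9690 tested genes with a window. CCGGAAG, a core of ETS-family sites searched on both strands over the whole window, was found for 42.4% of the ribosomal protein genes, 37.5% of the biogenesis genes and 19.8% of the tested genes. CACGTG, the palindromic E-box bound by Myc and clock factors, was found for 10.2%, 22.9% and 11.7% of these 3 sets in the same order, and TATAAA on the gene strand for 8.47%, 2.08% and 5.46%. The share with the pyrimidine letters was thus above both other sets, whereas the share with the E-box letters was below that of the biogenesis genes and near that of the tested genes; none of these matches is a measured binding site.

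Several facts of the libraries bear on the results. Each held between 18410748 and 47598200 counts. The share of counts on the mitochondrial genome was 46.4 to 57.0% for cold knockouts, 49.1 to 57.3% for knockouts kept at 22 °C, 43.4 to 52.2% for cold wild types and 45.4 to 48.9% for wild types kept at 22 °C. The targeted gene Noct ran from 3.37 to 34.2 CPM over the 8 knockouts, against 91.5 to 457 CPM over the 9 wild types, so every knockout lay below every wild type. CPM are TMM-scaled counts, each library's counts divided by its total and a trimmed-mean factor, which sets libraries to a common level over most genes. All 10 brown adipocyte markers were well counted, with Ucp1 at 3680 to 7850 CPM, whereas all 12 lymphocyte markers in the table had a median below 1 CPM and summed to 0.737 to 3.34 CPM. Skeletal muscle markers summed to between 28.5 and 1265 CPM, with a wide range inside every group.

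Per gene length, the 79 genes differed far more from each other than between groups. The authors' RPKM values, which scale counts by gene length and library total, averaged from 0.634 (Rpl39l) to 102 (Rps15) over the 17 libraries, a ratio of 161, with a median of 15.7 RPKM. Among the highest were Rps15 at 102 RPKM, Rpl17 at 77.0 RPKM and Rpl8 at 74.5 RPKM, all constitutive parts of their subunits. The lowest were Rpl30 at 2.41 RPKM, Rps10 at 1.83 RPKM, Rpl3l at 0.730 RPKM and Rpl39l at 0.634 RPKM, the last 2 being paralogs known in mouse from striated muscle and from testis. Rps15 averaged 97.6 ± 19.4 RPKM in knockouts at 6 °C, 102 ± 11.4 RPKM in knockouts at 22 °C, 95.1 ± 11.1 RPKM in wild types at 6 °C and 117 ± 10.7 RPKM in wild types at 22 °C (SD, n = 4, 4, 5 and 4). On the TMM scale its group means were 64.9, 65.2, 61.4 and 65.7 CPM in the same order, so the higher RPKM of wild types at 22 °C went with the scaling to library totals.

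**Figure D1:**
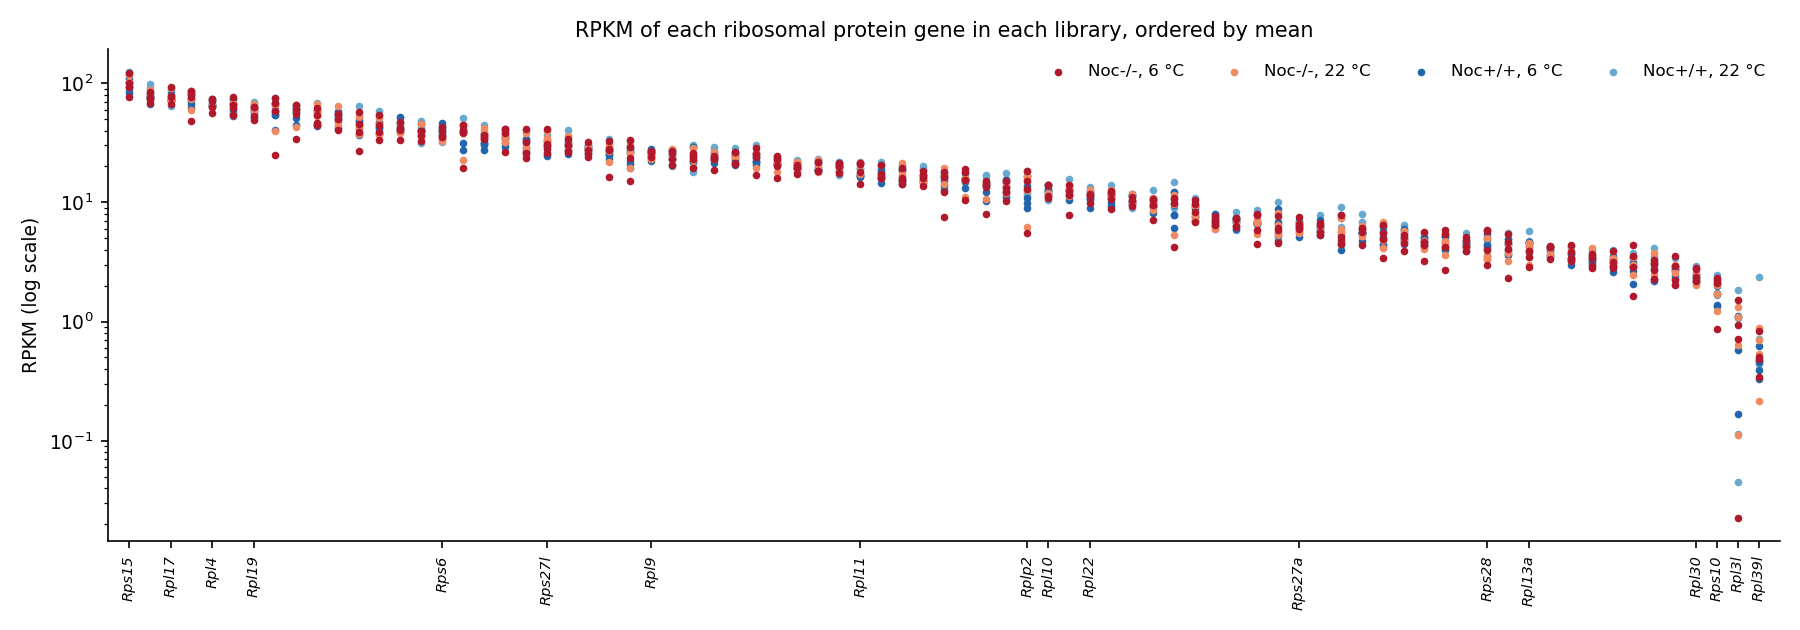
RPKM (log scale) of each of the 79 genes in each library, genes ordered by their mean over the 17 libraries with some of them labelled, colours marking the 4 groups. Means fall from 102 RPKM for Rps15 to 0.634 RPKM for Rpl39l while the points of the 4 groups mix at most genes; the library in which Rpl3l had no count is not drawn.

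These levels carry a limit of their own. The gene length implied by the RPKM values was a median of 2.32 times, and at most 9.8 times, the length of the gene's GENCODE vM21 mRNA (the shortest with the longest coding sequence), and it equalled all exon bases of the annotated gene for 66 of the 79, so that retained and rare exons count as length. The mRNAs also share sequence with other genes: a median of 55.4% of their 50-base words (range 0 to 98.6%) occurred in transcripts of another gene, 43 of 79 shared at least 50%, and a median of 8 pseudogenes, at most 120, shared words with a gene. Of 55 ribosome biogenesis genes, 34 shared none. Shared words covered 84.6% of the Rps6 mRNA and 86.7% of the Rpl9 mRNA, but 16.5% of Rpl4 and none of Rpl3l and Rpl39l. The sources used here do not give how reads with several places were counted, and levels of genes with many shared words are uncertain. Across the 79 genes the shared percent had a Spearman rho of 0.0232 with mean RPKM, a description over genes that are not independent replicates.

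Taken as one quantity, the genes made up a small part of each library, and that part did not separate the groups. They took 0.247, 0.292, 0.224 and 0.290% of all counts in knockouts at 6 °C and 0.272, 0.263, 0.285 and 0.252% in knockouts at 22 °C. They took 0.266, 0.250, 0.254, 0.257 and 0.282% in wild types at 6 °C and 0.307, 0.256, 0.279 and 0.3075% in wild types at 22 °C. All 4 groups overlapped, and the highest and lowest shares of all were in wild types at 22 °C and knockouts at 6 °C. The 79 genes summed to 2796 ± 233 CPM in knockouts at 6 °C, 2720 ± 150.5 CPM in knockouts at 22 °C, 2691 ± 123 CPM in wild types at 6 °C and 2568 ± 169 CPM in wild types at 22 °C (SD, n = 4, 4, 5 and 4). Ucp1 alone, the uncoupling protein that makes brown fat produce heat, had more counts than all 79 genes together in every library. Of the 79 genes, 43 shared at least 50% of their words with other genes. The level of the sum, and its comparison with Ucp1, are thus uncertain as well. As a share of counts outside the mitochondrial genome the sum was 0.537 ± 0.0510% in knockouts at 6 °C, 0.561 ± 0.0195% in knockouts at 22 °C, 0.509 ± 0.0228% in wild types at 6 °C and 0.547 ± 0.0622% in wild types at 22 °C. On that scale each knockout group overlapped the wild types of its own temperature, and cold and 22 °C mice overlapped within each genotype.

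**Figure D2:**
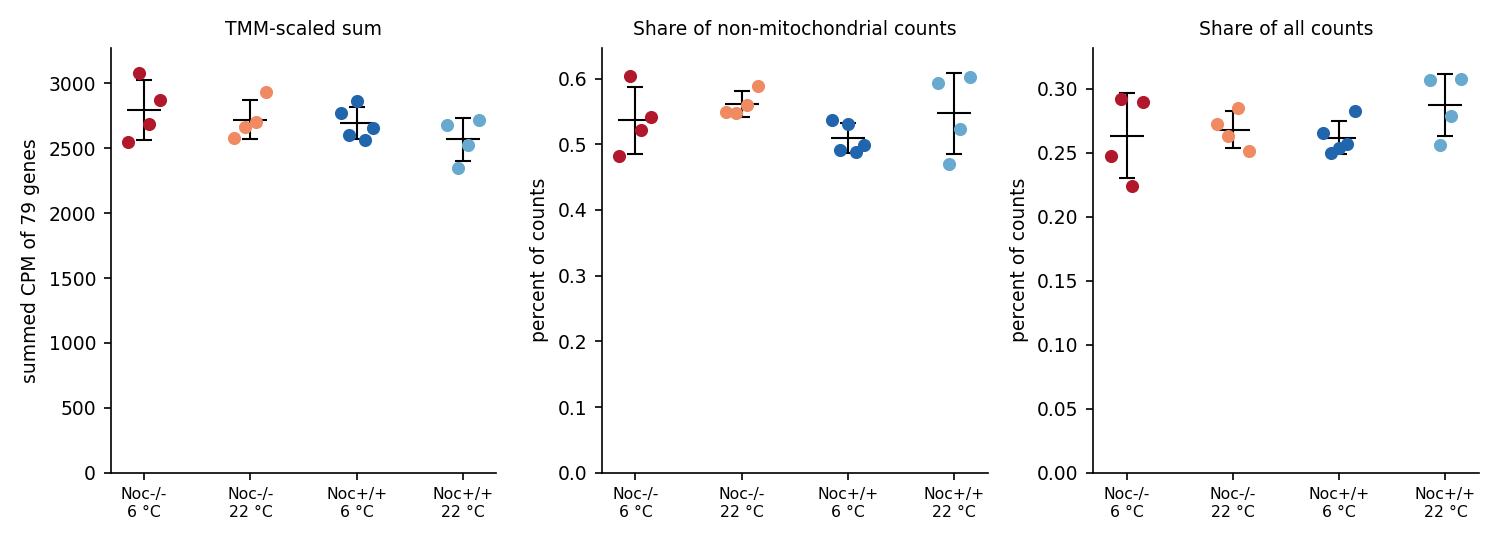
Summed level of the 79 genes per library as TMM-scaled CPM, as percent of counts outside mitochondrially encoded genes and as percent of all counts; points are mice, the horizontal mark is the group mean and bars are 1 SD. The groups compared by the design overlap on all 3 scales, and the order of the group means differs between scales.

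Single libraries stood out across many of the genes. Wild type 2 at 22 °C, at 2348 CPM the lowest of all 17, was the lowest of its group for 48 of the 79 genes and the highest for 2. Knockout 4 at 22 °C, at 2931 CPM, was the highest of its group for 42 genes but the lowest for 19. Knockout 2 at 6 °C, at 3082 CPM the highest of all, was the highest of its group for 36 genes and the lowest for 1. Knockout 1 at 6 °C was the lowest of its group for 38 genes and the highest for none. The same counts over all tested genes are not given here, so these cannot be called particular to the ribosomal protein genes. The small and large subunit sums deviated from their group means together across libraries (r = 0.964 over 17 libraries that share the scaling of both sums), whereas single pairs of genes did so less, with a median r of 0.292 and 70.6% of pairs above 0. In bulk tissue, fewer cells of a type and less RNA per cell cannot be told apart.

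In the cold few ribosomal protein genes changed in either genotype. Of the 79 genes, 0 rose and 0 fell in knockouts at 6 °C against 22 °C, where 11.6% of all tested genes rose and 10.0% fell. In wild types 2 rose and 0 fell, Rps6 and Rpl9, where 14.3% of all tested genes rose and 13.3% fell. Counted in either direction, 21.6% of all tested genes were called in knockouts and 27.6% in wild types. Rose and fell mean an adjusted p below 0.05 in edgeR's quasi-likelihood test, with Benjamini-Hochberg adjustment over the 12486 genes tested. No gene had an unadjusted p below 0.05 in knockouts, and 4 had one in wild types. The median log2 change was 0.04 in knockouts (all tested genes -0.02) and 0.04 in wild types (all tested genes -0.03), and 52 and 49 of the 79 changes were positive.

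For most genes the interval of the change was narrow. The 95% interval lay within a 1.5-fold change in both directions for 72 of 79 genes in knockouts and for 73 of 79 in wild types, against 39.9% and 40.3% of all tested genes. The median SE was 0.136 in knockouts and 0.129 in wild types, against 0.175 and 0.165 over all tested genes. These shares, and those of the other comparisons below, were not matched for count level. The range of the 79 log2 changes was -0.28 (Rpl36) to 0.34 (Rps28) in knockouts and -0.90 (Rpl39l) to 0.36 (Rps6) in wild types. Rpl39l, the gene with the fewest counts, set the lower end in wild types with a log2 change of -0.90 ± 0.45 (SE, edgeR quasi-likelihood, adjusted p = 0.15). Its levels were 0.283, 0.341, 0.427, 0.390 and 0.492 CPM in wild types at 6 °C, against 1.72, 0.365, 0.333 and 0.526 CPM in wild types at 22 °C. Wild type 1 at 22 °C stood far above the rest, and without it the log2 change of Rpl39l was -0.0614.

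**Figure D3:**
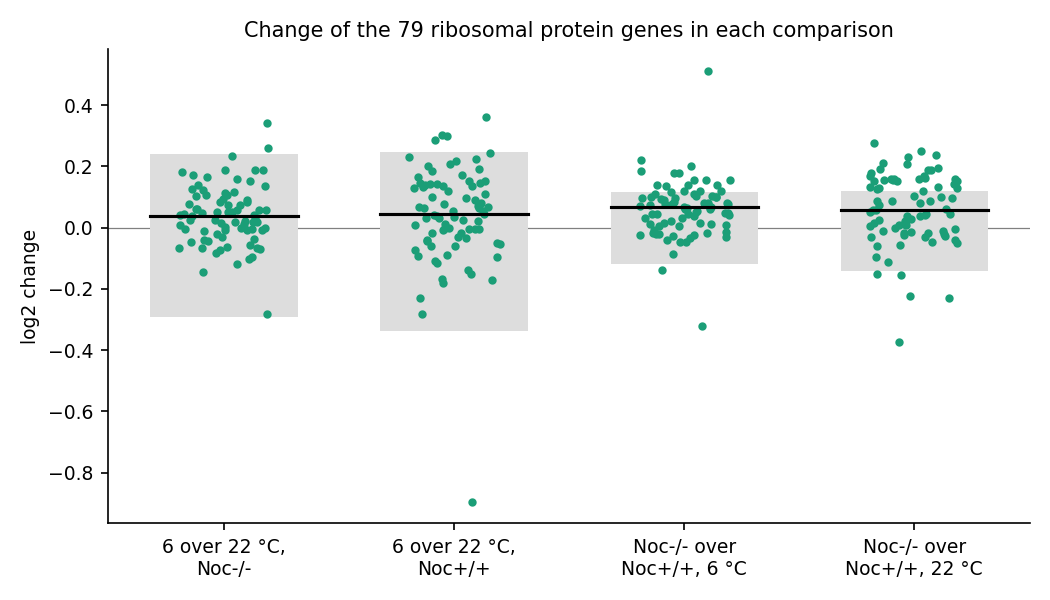
Log2 change of each of the 79 genes (points) in 4 comparisons, with the median of the 79 as a black line and the middle 50% of all tested genes as a grey band. Nearly all points lie between -0.4 and 0.4; Rpl39l is the lowest point of the wild-type cold response and the highest point of the genotype comparison at 6 °C.

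Rps6, the small-subunit protein phosphorylated downstream of TOR, had the largest rise of the 79 genes in wild types. It had 67.9, 60.1, 78.5, 63.0 and 69.6 CPM in wild types at 6 °C, against 52.6, 46.7, 53.2 and 58.7 CPM in wild types at 22 °C. The groups did not overlap, although the lowest cold value stood close above the highest value at 22 °C. The log2 change was 0.36 ± 0.13 (SE; edgeR quasi-likelihood, adjusted p = 0.0448). In knockouts it had 57.1, 66.3, 81.7 and 56.8 CPM at 6 °C, against 50.7, 52.9, 51.4 and 67.7 CPM at 22 °C, and these groups overlapped through knockout 4 at 22 °C. The log2 change there was 0.23 ± 0.13 (SE; edgeR quasi-likelihood, adjusted p = 0.24), and the difference between the 2 cold responses was -0.13 ± 0.19 (SE; adjusted p = 0.9997), so a difference between genotypes was not detected.

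Rpl9, a large-subunit protein near the factor-binding side of the ribosome, stood at the edge of the threshold. It had 90.2, 82.5, 94.1, 68.2 and 80.4 CPM in wild types at 6 °C, against 68.1, 66.1, 67.1 and 68.4 CPM in wild types at 22 °C. Wild type 4 at 6 °C lay inside the range at 22 °C and the other 4 above it. The log2 change was 0.30 ± 0.11 (SE; edgeR quasi-likelihood, adjusted p = 0.0499). In knockouts it had 75.6, 86.5, 101 and 81.0 CPM at 6 °C, against 72.5, 71.3, 69.1 and 88.3 CPM at 22 °C, with a log2 change of 0.19 ± 0.12 (SE; edgeR, adjusted p = 0.28), and the groups overlapped through the same library as for Rps6.

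Both calls changed with the settings. Over 30 other settings and left-out libraries, Rps6 missed the threshold in 13 (log2 change 0.15 to 0.43) and Rpl9 in 18 (0.09 to 0.37), and with scaling to library totals their adjusted p were 0.241 and 0.408. Among these 30, the setting with a higher count minimum for members kept the reported fit. No single-gene call, here or below, could change under it. The library with the largest mitochondrial share of each group was knockout 3 at 6 °C (57.0%), knockout 4 at 22 °C (57.3%), wild type 3 at 6 °C (52.2%) and wild type 4 at 22 °C (48.9%). In each of the 4 groups that library was also the highest for Rps6 and for Rpl9, with 81.7, 67.7, 78.5 and 58.7 CPM of Rps6. The same held for 12 of the 79 ribosomal protein genes (15.2%), among them Rpl17, Rpl22, Rpl39 and Rps27, against 1.96% of all tested genes. In knockout 3, knockout 4 and wild type 3 the muscle marker sums were also the highest of their groups (1265, 1039 and 1015 CPM). In wild type 4 at 22 °C that sum was the lowest of its group (35.8 CPM). The part of mitochondrial share or of muscle RNA in the calls was not tested. Without wild type 3 at 6 °C neither Rps6 nor Rpl9 passed the threshold, and neither passed without wild type 1, 2 or 3 at 22 °C and without wild type 1 or 5 at 6 °C. Without wild type 4 at 6 °C 3 genes passed, with Rps27a added at a log2 change of 0.356.

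Below these came genes that missed the threshold. Rps27a, which is made as a fusion with ubiquitin, had a log2 change of 0.29 ± 0.11 in wild types (SE; edgeR quasi-likelihood, adjusted p = 0.064) and 0.16 ± 0.12 in knockouts (adjusted p = 0.37). Rpl10, the protein that joins the large subunit last, had 28.4, 26.4, 28.8, 25.8 and 27.2 CPM in wild types at 6 °C, against 25.2, 19.5, 22.3 and 25.3 CPM in wild types at 22 °C. The groups did not overlap, yet the log2 change was 0.24 ± 0.10 (SE; edgeR, adjusted p = 0.088). In wild types 3 of the 79 genes (Rps6, Rpl10 and, chosen after its values were seen, Rps9) lay wholly higher at 6 °C and 1 (Rps19, likewise) wholly lower, where 13% and 12.8% of all tested genes did. In knockouts no gene lay wholly apart, where 10.8% of tested genes were wholly higher and 9.43% wholly lower.

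In knockouts the smallest p values belonged to Rps28, Rps6, Rpl36 and Rpl10. Rps28, a small-subunit protein next to the mRNA exit channel, had 6.05, 9.05, 5.22 and 8.27 CPM in knockouts at 6 °C, against 4.94, 5.00, 6.99 and 5.66 CPM in knockouts at 22 °C. The groups overlapped and the log2 change was 0.34 ± 0.18 (SE; edgeR quasi-likelihood, adjusted p = 0.19). Rpl36, on the large subunit, had 5.05, 6.88, 3.66 and 7.19 CPM at 6 °C, against 6.52, 6.99, 7.49 and 6.74 CPM at 22 °C. Knockout 3 at 6 °C was lowest, and the log2 change was -0.28 ± 0.16 (SE; edgeR, adjusted p = 0.24). Without that library 1 gene passed the threshold in knockouts, Rps9 (chosen after its values were seen), with a log2 change of 0.30 and an adjusted p of 0.0384 in edgeR.

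Wild type 2 at 22 °C bore on the sign of the median change in wild types: without it the median log2 change of the 79 genes was -0.00102 and 39 were positive. The scaling bore on it as well. With library totals in place of TMM, the median of all tested genes shifted to -0.229 in wild types and -0.0923 in knockouts, and the ribosomal protein genes stood at -0.159 and -0.0281, with 8 and 30 of 79 positive. Relative to the median of all tested genes the 79 genes lay slightly higher under both scalings.

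Many of the genes that build ribosomes rose in the cold. Of 55 ribosome biogenesis genes, all tested, 22 rose and 1 fell in knockouts at 6 °C against 22 °C, and 27 rose and 1 fell in wild types, beside 11.6% and 14.3% of all tested genes that rose. With scaling to library totals the wild-type counts were 15 higher and 2 lower, and with limma on log2(RPKM + 0.1) 13 higher and 2 lower, while the knockout counts were 21 higher and 1 lower in both. The shares of all tested genes that rose under these settings are not given here. The median log2 change was 0.38 in knockouts and 0.41 in wild types. Neither genotype comparison nor the difference between the cold responses called any of the 55. Of all tested genes, 0.0400% were called between genotypes at 6 °C, 0.0160% at 22 °C and 0.00801% for the difference between the responses. The list covers RNA polymerase I and its factors, the nucleolar processing particles and the assembly and export factors of both subunits.

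Nop58, a core protein of the box C/D particles that methylate ribosomal RNA, had 16.5, 24.5, 29.4 and 22.0 CPM in knockouts at 6 °C, against 9.33, 11.9, 8.25 and 13.3 CPM in knockouts at 22 °C. In wild types it had 24.7, 27.3, 27.3, 13.2 and 18.1 CPM at 6 °C, against 11.3, 14.1, 10.8 and 9.99 CPM at 22 °C. The knockout groups did not overlap, and in wild types only cold mouse 4 reached into the range at 22 °C. The log2 change was 1.09 ± 0.19 in knockouts (SE; edgeR quasi-likelihood, adjusted p = 0.000794) and 0.96 ± 0.18 in wild types (adjusted p = 0.00117). Gnl3, nucleostemin, a nucleolar GTPase, had 18, 22.9, 29.8 and 25.7 CPM in knockouts at 6 °C, against 12.5, 11.3, 12.5 and 14.3 CPM in knockouts at 22 °C. In wild types it had 30, 28.8, 32.8, 14.9 and 22.8 CPM at 6 °C, against 10.8, 15.2, 13.3 and 11 CPM at 22 °C, with wild type 4 at 6 °C again the lowest of the cold mice. Its log2 change was 0.91 ± 0.19 in knockouts and 1.06 ± 0.18 in wild types (SE; edgeR quasi-likelihood, adjusted p = 0.00262 and 0.000528).

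Ddx21, a nucleolar RNA helicase, kept its groups apart in both genotypes. It had 56.5, 68.9, 69.8 and 59.4 CPM in knockouts at 6 °C, against 40.7, 36.2, 35.7 and 41.3 CPM in knockouts at 22 °C. In wild types it had 69.7, 77.9, 79.6, 47.9 and 65.5 CPM at 6 °C, against 32.2, 42.6, 33.7 and 33.7 CPM at 22 °C. The log2 change was 0.72 ± 0.13 in knockouts and 0.95 ± 0.13 in wild types (SE; edgeR quasi-likelihood, adjusted p = 0.00122 and 8.41e-05). Dkc1, the pseudouridine synthase of box H/ACA particles and the 1 gene that fell (chosen after its values were seen), had a log2 change of -0.79 ± 0.10 in knockouts and -0.74 ± 0.10 in wild types (SE; edgeR, adjusted p = 9.98e-05 and 7.15e-05). It had 12.3, 13.8, 12.1 and 12.3 CPM in knockouts at 6 °C, against 23.3, 23.3, 18.9 and 21.9 CPM in knockouts at 22 °C, so these groups did not overlap. In wild types it had 12.1, 13.2, 10.6, 10.3 and 11.1 CPM at 6 °C, against 18.6, 18.9, 20.2 and 18.9 CPM at 22 °C, likewise apart.

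Other biogenesis genes rose in both genotypes: Nop14 of the small-subunit processome (0.85 in knockouts, 0.95 in wild types), Rrp12, known in yeast as an export factor (0.96 and 0.82 in the same order), Mdn1, a large ATPase that remodels large-subunit precursors (0.88 and 0.76), and Polr1a, the largest subunit of RNA polymerase I (0.81 and 0.57), all as log2 changes. Fbl, the methyltransferase that works beside Nop58, did not pass in either genotype, with log2 changes of 0.21 and 0.08, and neither did Polr1b, with 0.17 and -0.08; Polr1a, Fbl and Polr1b were chosen after their values were seen. The calls of Nop58, Gnl3, Ddx21, Nop14, Rrp12 and Mdn1 passed the threshold under all 30 other settings and left-out libraries, in both genotypes. The setting with a higher count minimum for members, counted among them, could not alter these calls. Nerve markers summed to 117 to 174 CPM in cold knockouts against 95.7 to 126 CPM in those at 22 °C, and to 140 to 168 CPM in cold wild types against 85.6 to 120 CPM in those at 22 °C; endothelial markers summed to 541 to 750 CPM in cold knockouts against 556 to 589 CPM in those at 22 °C, and to 586 to 743 CPM in cold wild types against 478 to 606 CPM in those at 22 °C. All 7 nerve and all 11 endothelial markers were in the table, with Th, of sympathetic nerve, at 0 in 13 libraries and Sox10 at 0 in 1. Of the 6 nerve markers tested, 1 rose and 0 fell in knockouts, and 1 rose and 1 fell in wild types. Their median log2 change was -0.128 in knockouts and -0.0215 in wild types, so the higher sums were not shared by the list. Of the 11 endothelial markers, 3 rose and 1 fell in knockouts (median 0.13), and 3 rose and 2 fell in wild types (median 0.199). The 10 brown adipocyte markers summed to 14396 to 18626 CPM in cold knockouts against 10377 to 13992 CPM in those at 22 °C, and to 14846 to 18919 CPM in cold wild types against 10493 to 11990 CPM in those at 22 °C. Of these 10, Ucp1, Dio2, Ppargc1a and Elovl3 rose in both genotypes and Prdm16 fell in wild types, while Cidea, Fabp4, Plin1, Cox8b and Adrb3 passed in neither; the list's median log2 change was 0.187 in knockouts and 0.102 in wild types. White adipocyte markers summed to 21.2 to 33.6 CPM in cold knockouts against 22.7 to 51.6 CPM in those at 22 °C, and to 18.8 to 40.2 CPM in cold wild types against 38.0 to 57.1 CPM in those at 22 °C. Of 11 listed, 8 were in the table and 6 were tested; Lep fell in both genotypes and Slc7a10 in wild types, Tcf21 was at 0 in all 17 libraries and Hoxc9 in 16. The part of these marker sums in the biogenesis changes was not tested.

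**Figure D4:**
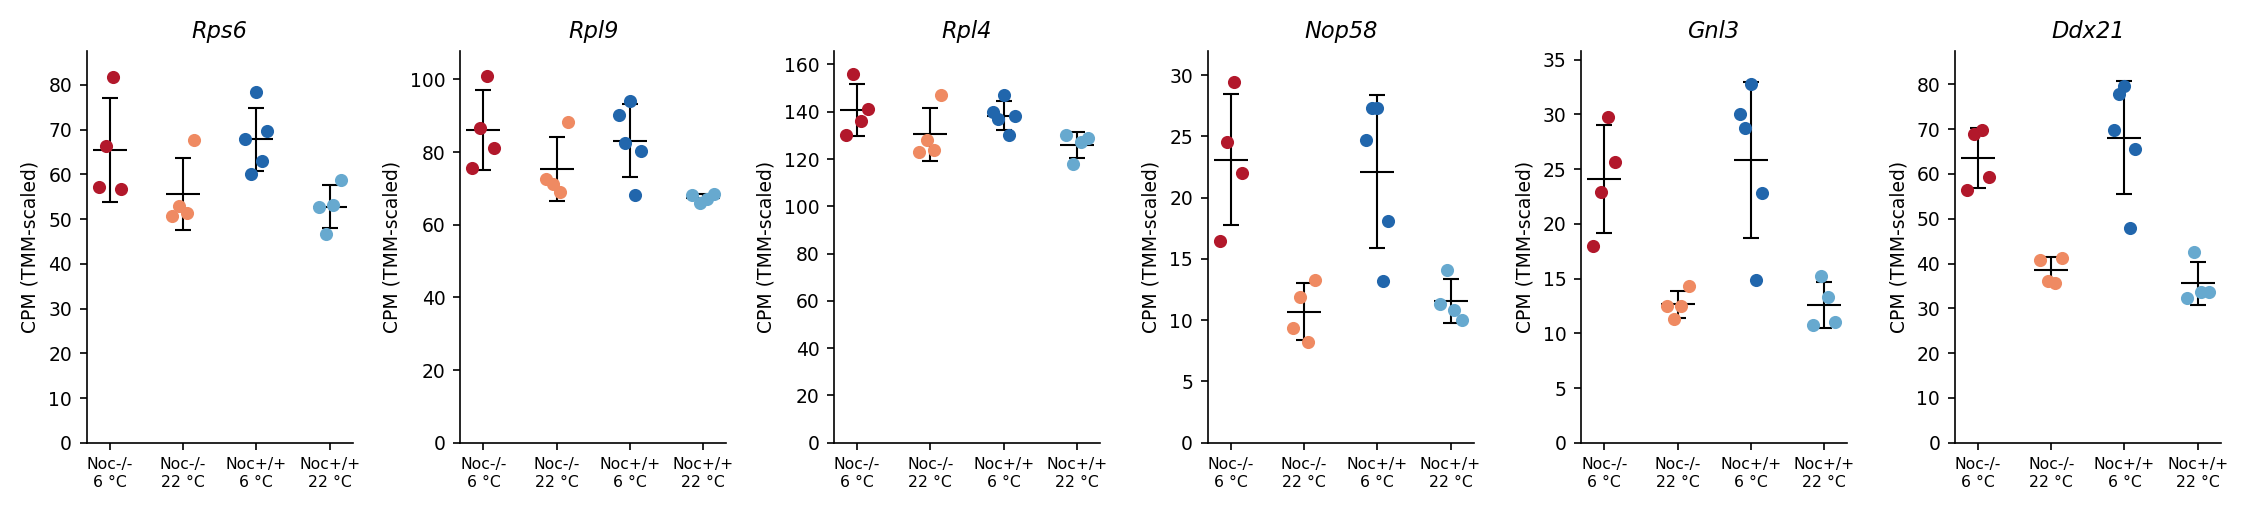
TMM-scaled CPM of the ribosomal protein genes Rps6, Rpl9 and Rpl4 and the biogenesis genes Nop58, Gnl3 and Ddx21 in each mouse, with group means and 1 SD. The means of the 3 biogenesis genes are higher at 6 °C in both genotypes, while Rpl4, chosen after its values were seen, stays between 118 and 156 CPM in all 17 libraries.

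**Figure D5:**
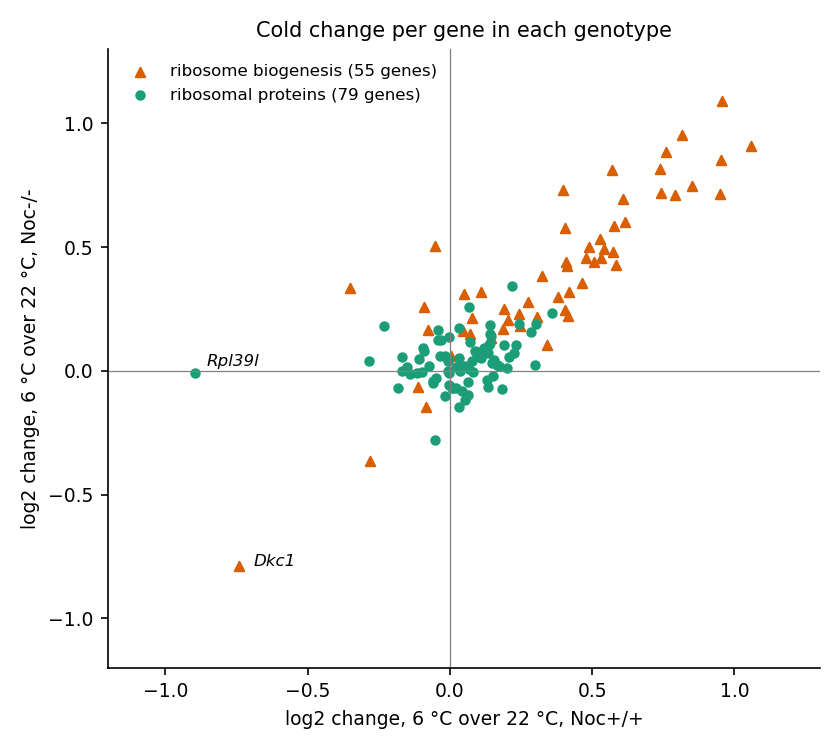
Log2 change with cold in knockouts (vertical axis) against wild types (horizontal axis) for 79 ribosomal protein genes (circles) and 55 ribosome biogenesis genes (triangles). Circles gather round 0 on both axes, most triangles lie to the upper right, and Dkc1 lies to the lower left.

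Genes of the translation machinery that share the TOP tract had medians between these sets. Of 27 translation factors and other TOP genes, 2 rose and 0 fell in knockouts and 4 rose and 0 fell in wild types, with median log2 changes of 0.10 and 0.15. Beside the 11.6% and 14.3% of all tested genes that rose, the share that rose was below the background in knockouts and close to it in wild types. Eif3a, the largest subunit of the initiation factor that joins the small subunit, rose by 0.43 ± 0.14 on the log2 scale in knockouts and 0.60 ± 0.14 in wild types (SE; edgeR quasi-likelihood, adjusted p = 0.0394 and 0.00396). The knockout call of Eif3a was lost in 10 of 30 other settings and left-out libraries, the wild-type call in 0. Npm1, a nucleolar chaperone, and Naca, a nascent-chain binding protein, rose in wild types (0.51 and 0.42), and Hnrnpa1, an RNA-binding splicing factor, rose in knockouts (0.49). Npm1 missed the threshold in 6 of those 30, Naca in 8 and Hnrnpa1 in 2. The elongation factors Eef1a1 and Eef2 had log2 changes of -0.02 and 0.10 in knockouts and 0.20 and 0.08 in wild types, and neither passed (both chosen after their values were seen). Fau, Rack1 and Rps3a1, ribosomal protein genes outside the symbol rule and chosen likewise, had log2 changes of 0.22, 0.14 and 0.14 in knockouts and 0.03, 0.03 and 0.27 in wild types, and none of the 3 passed in either genotype.

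Genes that control TOP mRNAs and TOR, in a list that also holds Myc, Mycn, Max and Mxd4, included some that rose and some that fell. Of 30 tested, 6 rose and 3 fell in knockouts, where 11.6% of all tested genes rose and 10.0% fell, and 8 rose and 3 fell in wild types, where 14.3% rose and 13.3% fell. The counts of falls were thus no higher than the background. Larp1, which binds TOP tracts (chosen after its values were seen), rose by 0.70 ± 0.14 in knockouts and 0.43 ± 0.13 in wild types on the log2 scale (SE; edgeR quasi-likelihood, adjusted p = 0.00178 and 0.0197). Larp4, a poly(A)-binding relative, rose by 0.80 in knockouts and 0.86 in wild types. Ddit4 and Sesn2, inhibitors of the TOR complex, rose by 1.44 and 1.41 in knockouts and by 1.34 and 0.99 in wild types, all on the log2 scale. Ddit4 missed the threshold in 6 of 30 other settings in knockouts and in 4 of 30 in wild types, and Sesn2 in 0 and in 3. Sesn1, a TOR inhibitor of the same family as Sesn2, fell in knockouts. It had 5.35, 7.31, 4.31 and 3.64 CPM in knockouts at 6 °C, against 12.7, 7.92, 10.8 and 11 CPM in knockouts at 22 °C, groups that did not overlap. Its log2 change was -1.04 ± 0.19 in knockouts (SE; edgeR quasi-likelihood, adjusted p = 0.00117), a call lost in 0 of 30 other settings, and -0.42 ± 0.18 in wild types (adjusted p = 0.093). The others that fell were Tia1 and Mxd4 in both genotypes and Rps6ka1 in wild types; Tia1 and Mxd4 were chosen after their values were seen. These are mRNA levels, and neither TOR activity nor translation was measured.

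No ribosomal protein gene differed between genotypes past the threshold at either temperature. At 6 °C, 0 of 79 were higher and 0 lower in knockouts than in wild types by the edgeR test, where 0.00801% of all tested genes were higher and 0.0320% lower (0.0400% in either direction). At 22 °C, 0 of 79 were higher and 0 lower, where 0% of all tested genes were higher and 0.0160% lower. No gene had an unadjusted p below 0.05 in either comparison, and DESeq2 called none. The median log2 difference was 0.07 at 6 °C, with 62 of 79 positive, and 0.06 at 22 °C, with 55 of 79 positive, where all tested genes had medians of 0.00 and 0.00. The interval lay within a 1.5-fold difference for 71 of 79 genes at each temperature, against 58.6% and 56.0% of all tested genes.

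At 22 °C the sign of the median rested on 1 library. Without wild type 2 at 22 °C the median log2 difference at that temperature was -0.0287 and 32 of 79 were positive, and with library totals it was -0.0895 with 21 positive, where the median of all tested genes was -0.146. At 22 °C 4 genes (Rpl11, Rps27a, Rpl9 and Rpl36) lay wholly higher in knockouts and 0 wholly lower, where 2.29% and 1.93% of all tested genes did. Rpl11, a large-subunit protein that can bind Mdm2, had 54.3, 58.5, 52.1 and 54.7 CPM in knockouts at 22 °C, against 51.9, 47.6, 46.7 and 46.3 CPM in wild types at 22 °C. The lowest knockout stood only just above the highest wild type, and the log2 difference was 0.17 ± 0.11 (SE; edgeR quasi-likelihood, adjusted p = 0.9975). At 6 °C no gene lay wholly apart, where 0.457% of all tested genes were wholly higher and 0.585% wholly lower.

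The gene with the smallest p at 6 °C was Rpl13a. It had 6.25, 8.62, 9.92 and 7.22 CPM in knockouts at 6 °C, against 9.63, 10, 11, 8.97 and 9.34 CPM in wild types at 6 °C. Knockout 3 reached into the wild-type range, and the log2 difference was -0.32 ± 0.16 (SE; edgeR quasi-likelihood, adjusted p = 0.9991). At 22 °C it was Rpl19, with 59.8, 60.0, 60.5 and 78.8 CPM in knockouts, against 59.2, 47.5, 52.7 and 63.0 CPM in wild types. The groups overlapped, and the log2 difference was 0.24 ± 0.13 (SE; edgeR, adjusted p = 0.9975).

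The cold responses of the genotypes were also compared directly, as the cold change in knockouts minus that in wild types. Of the 79 genes 0 were higher and 0 lower by the edgeR test, where 0% and 0.00801% of all tested genes were, and none had an unadjusted p below 0.05. The median difference was -0.03 on the log2 scale (all tested genes 0.00), with 33 of 79 positive. The interval lay within a 1.5-fold difference for 57 of 79 genes, against 39.4% of all tested genes. The smallest p belonged to Rpl39l (0.89 ± 0.67, SE; edgeR, adjusted p = 0.9997), whose wild types at 22 °C include the single high value given above; without that library the difference was 0.0649.

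Several members have a paralog, and the share each paralog takes of its pair can be followed by group. Rps27l made up 34.9 to 43.9% of the counts of the Rps27 pair among cold knockouts and 43.2 to 45.0% among knockouts kept at 22 °C. Among cold wild types it made up 35.3 to 43.0%, and among wild types kept at 22 °C 37.7 to 44.8%. It is known in human cells as a target of p53, and per length it lay close to Rps27, at 31.6 ± 6.86 RPKM beside 36.7 ± 7.08 RPKM for Rps27 in knockouts at 6 °C (SD, n = 4). Shared words covered 98.6% of the Rps27 mRNA and 13.7% of the Rps27l mRNA. With the handling of such reads not given, the pair shares and the RPKM comparison are uncertain. Neither gene passed in any comparison. Rpl22l1, outside the symbol rule, made up 4.78 to 6.65% of its pair with Rpl22 among cold knockouts and 3.58 to 4.57% among knockouts kept at 22 °C. It made up 4.55 to 6.92% among cold wild types and 3.11 to 5.65% among wild types kept at 22 °C, so the knockout ranges lay apart and the wild-type ranges overlapped. Its log2 change with cold was 0.49 ± 0.25 in knockouts and 0.45 ± 0.24 in wild types (SE; edgeR quasi-likelihood, adjusted p = 0.18 and 0.17), while Rpl22 stood at -0.06 and 0.00.

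Rpl7l1 rose in both genotypes and Rsl24d1 in wild types; the yeast counterparts of both work in assembly rather than in the finished ribosome. Rpl7l1, whose yeast relative acts on early large-subunit precursors, had 36.1, 46.4, 51.8 and 36.9 CPM in knockouts at 6 °C, against 30.1, 32.4, 28.9 and 38.2 CPM in knockouts at 22 °C. In wild types it had 43.2, 43.4, 46.7, 40.2 and 45.6 CPM at 6 °C, against 28.2, 34.7, 34.7 and 34.7 CPM at 22 °C. Only the wild-type groups did not overlap. The log2 change was 0.40 ± 0.12 in knockouts and 0.42 ± 0.12 in wild types (SE; edgeR quasi-likelihood, adjusted p = 0.0258 and 0.0131), while Rpl7 had 0.02 and 0.17 and did not pass. Rsl24d1, whose yeast relative holds the place of Rpl24 in precursors, rose in wild types (0.41 ± 0.14, edgeR, adjusted p = 0.035) and had a log2 change of 0.18 ± 0.15 in knockouts (adjusted p = 0.42). Over 30 other settings and left-out libraries the call of Rpl7l1 was lost in 7 in knockouts and 3 in wild types, and the wild-type call of Rsl24d1 in 10.

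Rpl3l, the striated-muscle paralog of Rpl3, followed the muscle markers library by library. It had 1.20, 0.0387, 3.02 and 1.51 CPM in knockouts at 6 °C, where the 15 muscle markers summed to 358, 28.5, 1265 and 403 CPM in the same mice. It had 0.172, 1.06, 1.72 and 2.54 CPM in knockouts at 22 °C, where the markers summed to 68.6, 287, 559 and 1039 CPM. In wild types at 6 °C it had 0, 1.89, 2.06, 0.943 and 0.260 CPM beside marker sums of 50.4, 553, 1015, 484 and 67.2 CPM. In each of these 3 groups the order of Rpl3l was the order of the muscle sums. Wild types at 22 °C had 2.64, 0.173, 1.60 and 0.0657 CPM beside 800, 93.2, 744 and 35.8 CPM, again in the same order. All 15 muscle markers were in the table, and 7 of them, Ckm, Myh1, Myh2, Myh4, Pvalb, Tnni2 and Tnnt3, were each at 0 in 1 library; the part of muscle RNA in the values of Rpl3l was not tested. Rpl3l varied most of all members, and its share of the Rpl3 pair reached 4.78%. Shared words covered 85.6% of the Rpl3 mRNA and none of Rpl3l, so that share is uncertain.

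After Rpl3l and Rpl39l, the widest spread within groups belonged to Rplp2, one of the acidic stalk proteins that recruit translation factors, with a mean SD of 0.47 on the log2 scale. It had 32.2, 39.8, 13.8 and 26.7 CPM in knockouts at 6 °C and 32.5, 33.0, 25 and 15.1 CPM in knockouts at 22 °C. It had 35.9, 29.3, 20.9, 20.4 and 21.2 CPM in wild types at 6 °C and 33.0, 31.7, 22.7 and 21.3 CPM in wild types at 22 °C. The lowest values were in knockout 3 at 6 °C and knockout 4 at 22 °C, the libraries with mitochondrial shares of 57.0 and 57.3%, which were the highest of their groups for Rps6 and Rpl9. The median SD of the 79 genes was 0.178 and that of all tested genes 0.237. The narrowest of the 79 was Rpl4, with an SD of 0.0911 and a log2 change with cold of 0.11 ± 0.09 in knockouts and 0.14 ± 0.09 in wild types (SE; edgeR quasi-likelihood, adjusted p = 0.46 and 0.26).

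The 59 genes with a promoter window were split by the letters CTTTC near the start. The 19 with the letters had median log2 changes with cold of 0.05 in knockouts and 0.00 in wild types, and the 40 without had 0.03 and 0.07. Those without the letters included Rps6 and Rpl9. The window of Rps6 nevertheless holds a run of 10 pyrimidines across its start, so lacking the letters does not mean lacking such a run. The split is a description over genes, and its direction differed between genotypes.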

How the data were processed

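The authors deposited raw counts per gene for 17 libraries, aligned and counted with STAR and HTSeq on builds named mm10 and GRCm38.p6, per the submitters' processing notes; versions, strand setting and annotation are not given in the sources used here. The authors' deposited RPKM values scale those counts by gene length and library total.

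Counts were filtered by expression in the groups (12486 genes kept), scaled by TMM and fitted with edgeR 4.0.16 in R 4.3.3 on all 17 libraries, with group and sex as terms and 12 residual degrees of freedom. Quasi-likelihood tests gave 5 comparisons, adjusted by Benjamini-Hochberg over the 12486 genes and called below 0.05. Alternatives used DESeq2 1.42.0, limma 3.58.1 on log2(RPKM + 1) and log2(RPKM + 0.1), other scalings, filters, covariates and sample sets. The fit was tested on simulated data.

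Genes were named by rule: those past the threshold with the largest changes or, with under 4, the 4 smallest p; the 4 highest and 4 lowest RPKM; paralogs; the 3 widest spreads. For related lists, up to 4 passing genes with the largest change were named. Some items that these rules take are not reported here. Members and lists were chosen with earlier results of these data known. Shared words were counted in GENCODE vM21 transcripts. Intervals cover the modelled spread between libraries.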

Additional observations from a re-analysis of the deposited data

Results flagged for a closer look

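In 12 of 148 group values checked, 1 library stood apart from its group by a gap that chance gives in about 1 in 20 groups. Knockout 4 at 22 °C accounted for 6 of them, each time as the highest library. Rps6 had 67.7 CPM there, against 50.7 to 52.9 CPM in the other knockouts at 22 °C, and Rpl10 had 27.5 CPM against 22.5 to 23.3 CPM. Rps21 had 39.3 CPM against 28.8 to 30.5 CPM, and Rpl19 had 78.8 CPM against 59.8 to 60.5 CPM. Rpl17 had 82.4 CPM against 53.7 to 56.8 CPM, and Rps27l had 37.7 CPM against 25.8 to 27.6 CPM. That library also had the largest mitochondrial share of all 17 (57.3%). Its muscle marker sum was the highest of its group (1039 CPM), and its trimmed-mean factor the lowest (0.859). The part of these traits in the values was not tested.

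Rps10, which lies on the head of the small subunit, had 2.03 CPM in knockout 3 at 6 °C, against 4.21 to 4.56 CPM in the other knockouts at 6 °C. Rpl23a had 43.3 CPM in wild type 3 at 6 °C, against 31.5 to 33.7 CPM in the others of its group. In wild types at 22 °C, Rpl31 had 23.1 CPM in mouse 2 against 28.2 to 29.2 CPM, Rpl39 had 7.06 CPM in mouse 4 against 5.84 to 5.93 CPM, and mouse 1 had 1.72 CPM of Rpl39l against 0.333 to 0.526 CPM and 28.2 CPM of Rpl7l1 against 34.7 CPM in each of the others.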

How the results depend on the processing

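The 2 calls among the ribosomal protein genes in cold wild types changed with the settings. The count was 0 with scaling to library totals, with no low-count filter, with the majority sex of each genotype alone, with limma on log2(RPKM + 1) and on log2(RPKM + 0.1), and in both fits with a replicate block (with and without the sex term), where 29.9, 18.9, 19, 32, 30.5, 20.9 and 22% of tested genes were called in either direction. It ran from 0 to 3 when libraries were left out one at a time. In knockouts the count ran from 0 to 1 with libraries left out, and both genotype comparisons and the difference between the cold responses stayed at 0 under every setting run. Whether replicate numbers pair the libraries was not settled. Same-numbered libraries of different groups had correlations of deviations from -0.418 to 0.439 over 24 pairs (median 0.035), and 11 were above 0.1. Differently numbered libraries had -0.477 to 0.607 over 84 pairs (median -0.038), and 27 were above 0.1. These ranges overlap and cannot show that pairing is absent. Biogenesis genes called higher in cold wild types numbered 15 with library totals, 15 with log2(RPKM + 1) and 13 with log2(RPKM + 0.1), against 27 as reported, and 24 to 32 with libraries left out; in knockouts they numbered 18 to 26 with libraries left out. With library totals and the limma settings, 29.9, 32 and 30.5% of all tested genes were called in wild types in either direction. The shares called higher alone under these settings are not given here. The sign of the median over the 79 genes changed with library totals in both cold responses, at 22 °C between genotypes, and in the difference between the cold responses (0.112, where all tested genes had 0.126). The cause of these moves was not tested. The majority-sex setting was not run for the genotype comparisons or for the difference, where it would confound sex with genotype, and the setting with only the compared groups does not apply to the difference. Depth limits Rpl39l and Rpl3l, whose highest levels were 1.72 and 3.02 CPM.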
